A study of Mus musculus with 4 samples.

Results

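Cluster 9 is 1 of the groups of spots in the spatial transcriptomic data of 4 mouse brain sections, and its members are all spots that carry the cluster number 9 in the deposited cell type tables. It held 645 of 14809 spots. Of these, 103 were spots of the control section, 200 of the resilient, 73 of the susceptible and 269 of the ketamine-treated section. As a group, spots with this number keep upper-layer, layer 4, layer 5 and layer 6 types and astrocytes. A single spot keeps only 2.34 to 2.62 types on average, by section. Cluster 9 is set here against cluster 2, which is led by deep-layer types, and cluster 6, which is led by upper-layer types.

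The study took wild type C57 mice through chronic social defeat stress, in which a mouse is repeatedly defeated by an aggressive one. A social interaction test then separated animals that avoid others, called susceptible, from those that do not, called resilient. The labels do not state whether the control mouse was exposed to defeat. The control, resilient and susceptible mice received saline, and 1 further susceptible mouse received ketamine at 10 mg/kg intraperitoneally, with brains collected 7 days after ketamine. All 4 mice were wild type, their ages are not stated in the labels, and each group is 1 sagittal section. With 1 section a group there is no test between groups, every contrast is one of single sections, and the mouse, slide and cutting plane cannot be told apart from the condition.

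In the cerebral cortex, neurons of a kind lie in layers. The upper layers hold intratelencephalic (IT) neurons, which project to other parts of the cortex and to the striatum. Layer 5 holds both IT neurons and pyramidal tract (PT) neurons, which send axons to the brainstem and spinal cord, and layer 6 holds corticothalamic (CT) neurons and, at its base, L6b neurons. The retrosplenial and anterior cingulate areas (RSP and ACA in the type names) form the medial wall of the cortex. Astrocytes and vascular cells are found in every layer and at the pial surface.

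The values are the authors' estimates of how each spot divides among 67 cell types (47 glutamatergic, 11 GABAergic and 9 non-neuronal) or unknown. A type is called kept in a spot where its share is above 0, and the smallest kept share in cluster 9 was 14.2% of a spot. A spot is a small region that can hold several cells, so a share is an estimate for a region and not a count of cells. Shares in a spot sum to 100%, so a rise in one is a fall elsewhere, and fewer cells of a type cannot be told apart from less RNA per cell. Read depth, gene counts and positions on the tissue were not analysed here. Intervals in brackets are exact Clopper-Pearson 95% intervals, which cover counting error only, since neighbouring spots are not independent.

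Cluster 9 differed in size between the sections more than clusters 2 and 6 did. It took up 2.76% of the control section (2.26% to 3.34%), 4.81% of the resilient (4.18% to 5.51%), 2.12% of the susceptible (1.67% to 2.66%) and 7.74% of the ketamine-treated section (6.87% to 8.67%). The intervals of the control and susceptible sections overlapped, and those of the resilient and ketamine-treated sections lay apart from them and from each other. The share in the ketamine-treated section was 3.65 times that of the susceptible section and 2.80 times that of the control, and the resilient share was 1.74 times that of the control. Cluster 2 held 716, 766, 761 and 663 spots, and cluster 6 held 287, 265, 213 and 209 spots, in the order control, resilient, susceptible and ketamine-treated. Clusters 2, 6 and 9 together took up 29.6%, 29.6%, 30.4% and 32.8% of these sections. Within that sum, cluster 9 was 9.31% (7.66% to 11.2%) for the control, 16.2% (14.2% to 18.4%) for the resilient, 6.97% (5.50% to 8.69%) for the susceptible and 23.6% (21.1% to 26.1%) for the ketamine-treated section. The sum of the 3 clusters thus varied much less than the part of it that carried the number 9.

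**Figure D1:**
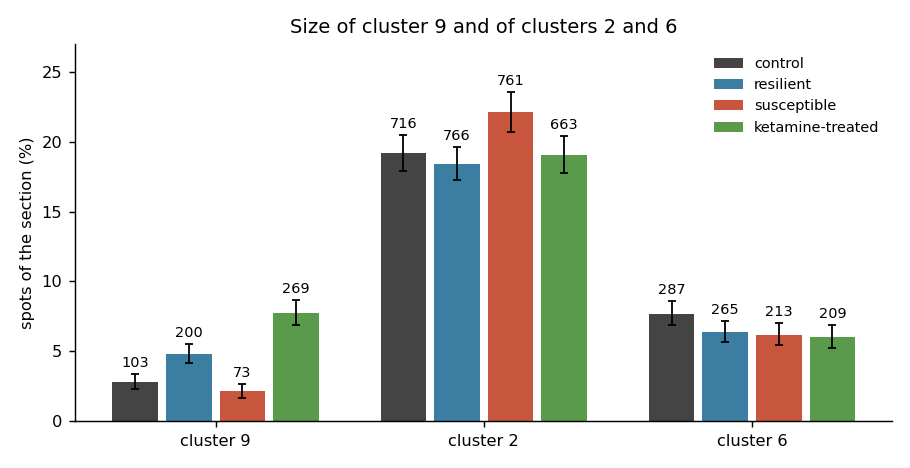
Percent of each section's spots in clusters 9, 2 and 6 (vertical axis), with bars for the 4 sections, exact 95% intervals as error bars and the number of spots above each bar. Cluster 9 ranged from 73 spots in the susceptible to 269 spots in the ketamine-treated section, while cluster 2 ranged from 663 to 766 spots.

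Spots of different sections share spot barcodes, which makes it possible to ask what the same barcode was called elsewhere. Cluster 9 used 622 distinct barcodes, of which 599 carried the number 9 in 1 section, 23 in 2 sections and 0 in more. Of the 269 cluster 9 barcodes of the ketamine-treated section, 251 were also present in the susceptible section. There 149 of them were in cluster 2, 42 in cluster 6 and 12 in cluster 9, so that 76.1% (70.3% to 81.2%) were in cluster 2 or 6, against 29.4% of all barcodes that these sections share. Of the 71 cluster 9 barcodes of the susceptible section found in the ketamine-treated section, 48 were in cluster 2 or 6 and 12 in cluster 9. Of all barcodes shared by these sections, 25% were in cluster 2 or 6 of the ketamine-treated section. The resilient and control sections gave a like result: of 81 resilient cluster 9 barcodes found in the control section, 64 (79.0%) were in cluster 2 or 6, where 30.1% of all shared barcodes were. In the other direction, 38 of 100 control cluster 9 barcodes were in cluster 2 or 6 of the resilient section, where 17.2% of all shared barcodes were. Between the sections of different pairs (control or resilient against susceptible or ketamine-treated), the share in cluster 2 or 6 ran from 2.04% to 11.8%, below the 23.8% to 35.5% of all their shared barcodes. Over all shared barcodes, the cluster number was the same for 53.2% between the susceptible and ketamine-treated sections and for 25.8% between the control and resilient sections, and for at most 2.56% between the other pairs. The sizes of the clusters alone, multiplied for each pair, give 9.91% to 12.2%. No source used here says that a barcode marks the same place on every array, so these counts describe barcodes and not matched tissue.

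At the 251 barcodes that were cluster 9 in the ketamine-treated section and present in the susceptible section, the layer composition was close. The upper-layer share was 24.7% in the ketamine-treated section and 23.6% in the susceptible one, and the layer 5 share was 31.3% and 30.4%. Layer 6 types took 8.27% and 5.72%, and the oligodendrocyte lineage took 2.11% in the ketamine-treated section and 6.95% in the susceptible section. At the 81 barcodes that were cluster 9 in the resilient section and present in the control section, the composition was less alike, with upper-layer shares of 6.62% and 25.6%, layer 5 shares of 32.4% and 22.7% and layer 6 shares of 20.6% and 11.04%. In the ketamine-treated and susceptible pair, the number 9 thus stood mostly at barcodes that the other section gave to cluster 2 or 6, and at the 251 barcodes looked up from the ketamine-treated section the upper-layer and layer 5 shares differed little. In the other direction, at the 71 barcodes that were cluster 9 in the susceptible section, the upper-layer share was 16.9% there and 22.1% in the ketamine-treated section, and the layer 5 share 27.6% and 29.6%.

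Of the 67 types, 51 were kept in at least 1 cluster 9 spot and 21 were kept in all 4 sections. The number kept was 31 for the control, 42 for the resilient, 28 for the susceptible and 43 for the ketamine-treated section, which follows the order of their numbers of spots. Astrocytes, L5_PT_RSP_ACA, L2_IT_RSP_ACA and L5_IT_CTX, the types by which the cluster was labelled, summed to 55.1% of the control, 47.0% of the resilient, 50.7% of the susceptible and 59.0% of the ketamine-treated cluster 9 spots. These markers come from the same tables as the cluster, so the sums describe it and do not test its name. Upper-layer, layer 5 and layer 6 types were all present in every section, as the label of mixed cortical layers says. Their presence does not set the cluster apart, since cluster 2 also held upper-layer types, at 4.46% to 15.6% by section, and cluster 6 held layer 6 types, at 0.26% to 1.02%.

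Astrocytes (Astro), the glia that surround synapses and vessels, had a mean share of 16.3% ± 23.3 for the control, 14.4% ± 23.9 for the resilient, 17.6% ± 26.4 for the susceptible and 14.5% ± 22.7 for the ketamine-treated section (SD over spots; n = 103, 200, 73 and 269). They were kept in 42.7%, 34.5%, 38.4% and 37.5% of spots in that order, and the intervals of these shares overlapped throughout. Where they were kept, the median share was 28.6%, 37.4%, 37.5% and 32.6%. They were the whole of 2, 6, 3 and 7 spots.

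L5_PT_RSP_ACA, the layer 5 PT neurons named for the retrosplenial and anterior cingulate areas, had mean shares of 10.8% for the control, 14.2% for the resilient, 15.3% for the susceptible and 16.4% for the ketamine-treated section. The type was kept in 28.2% (19.7% to 37.9%), 33.0% (26.5% to 40.0%), 37.0% (26.0% to 49.1%) and 43.9% (37.9% to 50.0%) of spots. The control and ketamine-treated sections stood at the ends of this order, and their intervals just overlapped. L5_IT_CTX, the layer 5 IT neurons, ran in another order, with 14.6% for the control, 10.5% for the resilient, 8.61% for the susceptible and 11.7% for the ketamine-treated section. It was kept in 37, 62, 14 and 76 spots, and the intervals of these shares of spots overlapped between every pair of sections. L5_IT_TPE_ENT, a layer 5 IT type named for temporal, perirhinal, ectorhinal and entorhinal areas, was lower, at 2.21%, 3.35%, 2.95% and 0.89%.

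L2_IT_RSP_ACA, the layer 2 IT neurons of the same medial areas, was the leading upper-layer type. Its mean share was 13.4% for the control, 7.87% for the resilient, 9.21% for the susceptible and 16.4% for the ketamine-treated section. It was kept in 28.2% (19.7% to 37.9%), 22.5% (16.9% to 28.9%), 23.3% (14.2% to 34.6%) and 34.9% (29.3% to 41.0%) of spots, so that the resilient and ketamine-treated intervals did not overlap and all others did. It led 17, 17, 7 and 54 spots. L2_3_IT_CTX, the IT neurons of layers 2 and 3, had 4.30%, 4.795%, 4.60% and 2.59%, and L2_IT_RSPv had 2.23%, 2.50%, 1.37% and 2.34%. Of the rarer upper-layer types, L3_RSP_ACA was kept in 2, 6, 0 and 8 spots and L2_IT_ENTl in 0, 1, 1 and 7 spots. A count of 0 among 73 spots allows a share of up to 4.11% of spots, so the empty susceptible section is no sign of absence. L2_3_IT_TPE was kept in 3, 7, 0 and 0 spots, and 0 of 269 allows up to 1.12% (3 spots).

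Between these, L4_5_IT_TPE_ENT, an IT type placed at the border of layers 4 and 5, had 6.88% for the control, 9.88% for the resilient, 8.57% for the susceptible and 5.22% for the ketamine-treated section. It was kept in 35.0% (28.4% to 42.1%) of resilient spots and in 16.4% (12.1% to 21.3%) of ketamine-treated spots, which did not overlap. L6_CT_CTX, the layer 6 neurons that project to the thalamus, had 8.79%, 8.77%, 7.34% and 4.74%. It was kept in few spots (14, 33, 11 and 23) but at high shares, with medians of 64.0%, 47.9%, 50.9% and 54.1% where it was kept. L6b_CTX had 2.45%, 2.55%, 0.66% and 1.26%, and L6_IT_CTX had 3.25%, 0.81%, 1.13% and 1.19%.

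Of the interneurons, Pvalb, the parvalbumin type that inhibits the cell bodies of pyramidal neurons, had 1.56% for the control, 2.44% for the resilient, 5.72% for the susceptible and 4.36% for the ketamine-treated section. It rested on 6, 14, 9 and 37 spots, and the intervals of its shares of spots overlapped. Oligodendrocytes (Oligo), the myelin-forming cells that the study's title is about, had a low and even share of 2.40%, 1.77%, 1.85% and 1.96%, in 5, 9, 5 and 15 spots. Their precursors (OPC) were kept in 1 spot, in the resilient section. Cluster 9 held 0.30% of the Oligo share of the control section, 0.53% of the resilient, 0.28% of the susceptible and 1.20% of the ketamine-treated section. Endothelial cells (Endo), which line the vessels, had 1.97%, 2.15%, 2.10% and 1.72%, and microglia (Micro), the resident immune cells, had 0.17%, 1.26%, 1.03% and 1.03%, the control value coming from 1 spot. NP_SUB, Meis2, SUB and CA1 reached at least 1% in at least 1 section. The highest of their means were 1.97% for NP_SUB, 1.86% for Meis2, 1.32% for SUB and 1.28% for CA1, and Meis2, SUB and CA1 rested on at most 5 spots in any section.

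**Figure D2:**
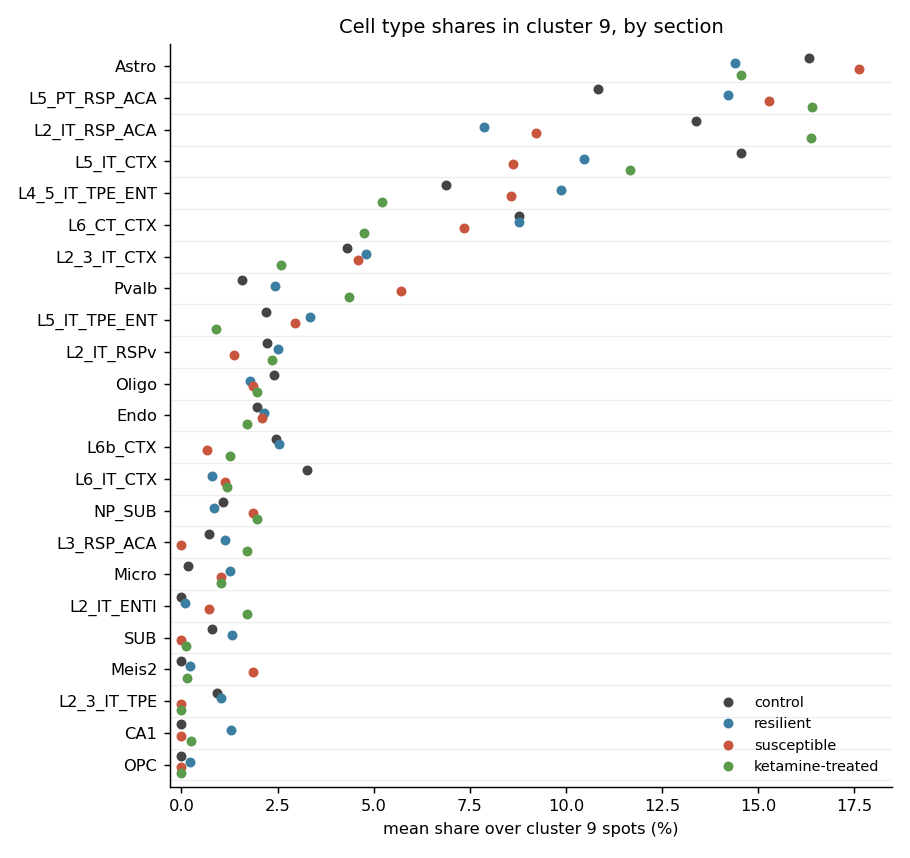
Mean share over cluster 9 spots (horizontal axis, percent) of each of the 23 named cell types, with 1 point for each section. Astro lies between 14.4% and 17.6% in all sections, while L2_IT_RSP_ACA runs from 7.87% in the resilient to 16.4% in the ketamine-treated section.

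Cluster 9 lay between clusters 2 and 6 in most of its layers. Upper-layer types (15 types whose names start with L2 or L3) summed to 21.6% for the control, 18.1% for the resilient, 16.4% for the susceptible and 25.8% for the ketamine-treated section. This was above cluster 2 in 4 of 4 sections, by 9.46 ± 4.24 percentage points, and below cluster 6 in 4 of 4, by a difference of -31.3 ± 6.95 points (mean ± SD over the 4 sections). Layer 5 types summed to 28.5%, 28.4%, 26.8% and 29.5%, the most even of the layer groups. They differed from cluster 2 by -6.87 ± 5.43 points and from cluster 6 by 19.8 ± 2.35 points, each with the same sign in 4 of 4 sections. Without the resilient section the difference from cluster 2 was -4.55 points. Layer 6 types summed to 14.5%, 13.3%, 10.5% and 7.72%, which was -12.3 ± 3.56 points from cluster 2 and 10.7 ± 2.77 points from cluster 6. Layer 4 types were the exception, at 7.11%, 10.6%, 8.57% and 5.22%. They were below cluster 6 in 4 of 4 sections but above cluster 2 in only 2 of 4. Of 23 named types, 8 had a mean between those of clusters 2 and 6 in all 4 sections: Astro, L5_PT_RSP_ACA, L2_IT_RSP_ACA, L6_CT_CTX, L2_3_IT_CTX, Pvalb, Oligo and L6b_CTX. Another 14 changed position between sections. The clusters were made from these same spots, so these differences describe them and no test was run.

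Astrocyte and vascular shares were higher in cluster 9 than in cluster 2. The astrocyte share was higher than in cluster 2 by 8.50 ± 1.82 points, in 4 of 4 sections, and differed from cluster 6 by -4.89 ± 4.38 points. Oligodendrocyte lineage cells differed by -2.28 ± 1.15 points from cluster 2 and by 1.48 ± 0.26 points from cluster 6. The 4 vascular types together took 3.46% for the control, 2.96% for the resilient, 2.92% for the susceptible and 3.17% for the ketamine-treated section. They were above cluster 2 by 2.50 ± 0.32 points and above cluster 6 by 1.82 ± 0.71 points, in all sections. Endo was the single named type that was above both clusters in all 4 sections. It was kept in 7, 14, 5 and 14 cluster 9 spots, which is 6.80%, 7.00%, 6.85% and 5.20% of them. In cluster 2 it was kept in 0.98%, 0.52%, 0.39% and 1.51% of spots, and in cluster 6 in 2.79%, 3.02%, 0.47% and 0.96%. In the control section the cluster 9 interval (2.78% to 13.5%) overlapped that of cluster 6 (1.21% to 5.42%). Hippocampal formation types (CA fields, dentate gyrus and subicular types) were above cluster 6 by 3.35 ± 0.96 points, while against cluster 2 the difference in the susceptible section was 0.0087 points. GABAergic types took 2.83%, 3.99%, 9.96% and 5.49% of cluster 9, above cluster 6 by 3.74 ± 3.39 points in 4 of 4 sections (2.24 without the susceptible section) and above cluster 2 in the susceptible section only.

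The cluster could be mixed because each of its spots holds several layers or because it gathers spots of separate layers. To tell these apart, spots were divided by whether they kept an upper-layer type, a deep-layer type (layer 5 or 6) or both. Both were kept in 11.7% (6.17% to 19.5%) of control, 16.5% (11.6% to 22.4%) of resilient, 13.7% (6.77% to 23.8%) of susceptible and 24.5% (19.5% to 30.1%) of ketamine-treated cluster 9 spots. Upper-layer types were kept in 36.9%, 36.0%, 30.1% and 48.7% of spots and deep-layer types in 65.0%, 67.5%, 63.0% and 63.2%. The product of each pair of shares is 24.0%, 24.3%, 19.0% and 30.8%, above the measured share of spots with both in 4 of 4 sections. That product is a point of reference and no test, because a spot kept only 2.34 to 2.62 types on average, which by itself lowers joint shares. In cluster 2, both were kept in 17.7%, 10.1%, 18.003% and 21.6% of spots, and in cluster 6 in 18.5%, 26.0%, 16.9% and 24.4%. By these values cluster 9 was below both other clusters in the control and susceptible sections and between them in the resilient section. It was close to both in the ketamine-treated section. Its interval overlapped those of clusters 2 and 6 in every section. Such overlap does not show that the shares were alike, and the order was not tested. In every section, most of its spots kept types of only one of these kinds. A further 10, 26, 15 and 34 spots kept neither, and astrocytes led 8, 14, 6 and 16 of these.

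**Figure D3:**
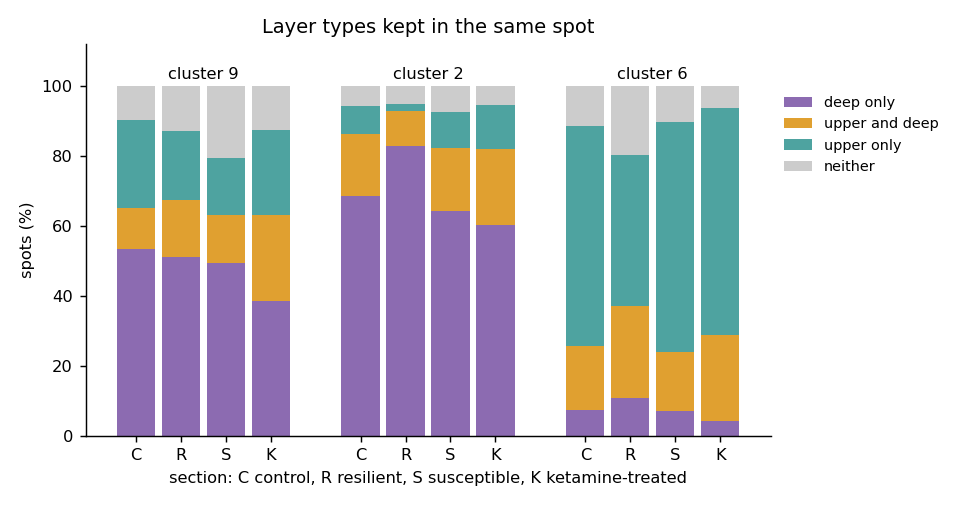
Percent of spots (vertical axis, stacked to 100) that kept deep-layer types only, both upper-layer and deep-layer types, upper-layer types only or neither, for clusters 9, 2 and 6 in each section. Both kinds were kept in 11.7% to 24.5% of cluster 9 spots, and cluster 9 holds sizeable parts of spots with deep types only and with upper types only, where clusters 2 and 6 are each dominated by one of them.

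Pairs of types showed which layers met in a spot. Among the 8 types with the highest mean shares there are 28 pairs. Of these, 12 occurred together less often than the product of their shares in all 4 sections and 5 more often in all 4. The product is again no test, since the few types kept in a spot by themselves lower joint shares. The pair kept together most often was L5_PT_RSP_ACA with L5_IT_CTX, both of layer 5, in 99 spots (15.3%). The 5 pairs above the product were L5_IT_CTX with L4_5_IT_TPE_ENT, Astro with L2_IT_RSP_ACA, L5_PT_RSP_ACA with Pvalb, L2_IT_RSP_ACA with L2_3_IT_CTX, and L4_5_IT_TPE_ENT with L2_3_IT_CTX. Apart from the pairs with Astro and Pvalb, these join types of the same or neighbouring layers. L5_IT_CTX with L4_5_IT_TPE_ENT was also above the product in every section of clusters 2 and 6. The pairs L5_PT_RSP_ACA with Pvalb and Astro with L2_IT_RSP_ACA were above it in every section of cluster 2 and below it in cluster 6. L6_CT_CTX and L2_3_IT_CTX, the deepest and one of the uppermost of these types, were kept together in 0 of 645 spots.

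One pair that joins layers 2 and 5 of the medial cortex differed between sections. L5_PT_RSP_ACA and L2_IT_RSP_ACA were kept together in 3 control spots (2.91%, 0.60% to 8.28%), 5 resilient spots (2.50%, 0.82% to 5.74%), 4 susceptible spots (5.48%, 1.51% to 13.4%) and 42 ketamine-treated spots (15.6%, 11.49% to 20.5%). The ketamine-treated interval lay above those of the control and resilient sections and overlapped that of the susceptible section. The products of the single shares were 7.93%, 7.43%, 8.61% and 15.3%. In cluster 2 the same pair was kept in 6.42%, 2.61%, 12.0% and 13.9% of spots in that order, so that there the susceptible and ketamine-treated sections were close. The pair was singled out after its values were seen.

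In the deposited t-SNE map, which places spots of alike measurements near each other and has no unit, the 10 nearest neighbours of cluster 9 spots were again in cluster 9 for 92.5% to 96.2%, by section. Cluster 2 gave 1.5% to 4.7% of the neighbours and cluster 6 gave 0.67% to 2.5%. Among the neighbours in cluster 9, those of the same section made up 16.2% for control spots, 46.0% for resilient, 15.8% for susceptible and 48.2% for ketamine-treated spots. The sections' shares of the cluster were 16.0%, 31.0%, 11.3% and 41.7%. Spots of the resilient, susceptible and ketamine-treated sections thus had more neighbours of their own section than the section's share of the cluster, and control spots had about that share.

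The map broke cluster 9 into separate islands. Spots were joined where they lay within a distance of 1.5 on the map and had at least 5 spots around them, a setting chosen after the map was seen. This gave 4 islands of at least 20 spots, 3 of 6 or 7 spots and 21 spots outside any island. At a distance of 2 there were 3 islands of at least 20 spots, the largest of 533 spots, so the division depends on that distance. Each of the 4 larger islands had spots from all 4 sections.

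The largest island held 446 spots (69.1%) and was itself mixed, with 36.8% layer 5, 20.9% upper-layer, 10.9% layer 6 and 9.21% astrocyte share. Both upper-layer and deep-layer types were kept in 20.6% (16.97% to 24.7%) of its spots. The next island held 81 spots and was led by astrocytes, at 54.4%, with 10.8% vascular and 9.12% hippocampal formation types. It made up 12.6% of cluster 9 and held 45.1% of its astrocyte share. The upper-layer island of 51 spots had 51.5% upper-layer, 17.01% layer 4 and 17.6% layer 5 types, and 0 layer 6 share. The layer 6 island of 26 spots had 69.8% layer 6 types, among them 51.9% L6_CT_CTX and 13.7% L6b_CTX, with 10.2% Oligo. A small island of 7 spots, from the resilient and ketamine-treated sections, had 85.5% hippocampal formation types. In cluster 9 as a whole, 175 spots (27.1%) were led by a type of no cortical layer.

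**Figure D4:**
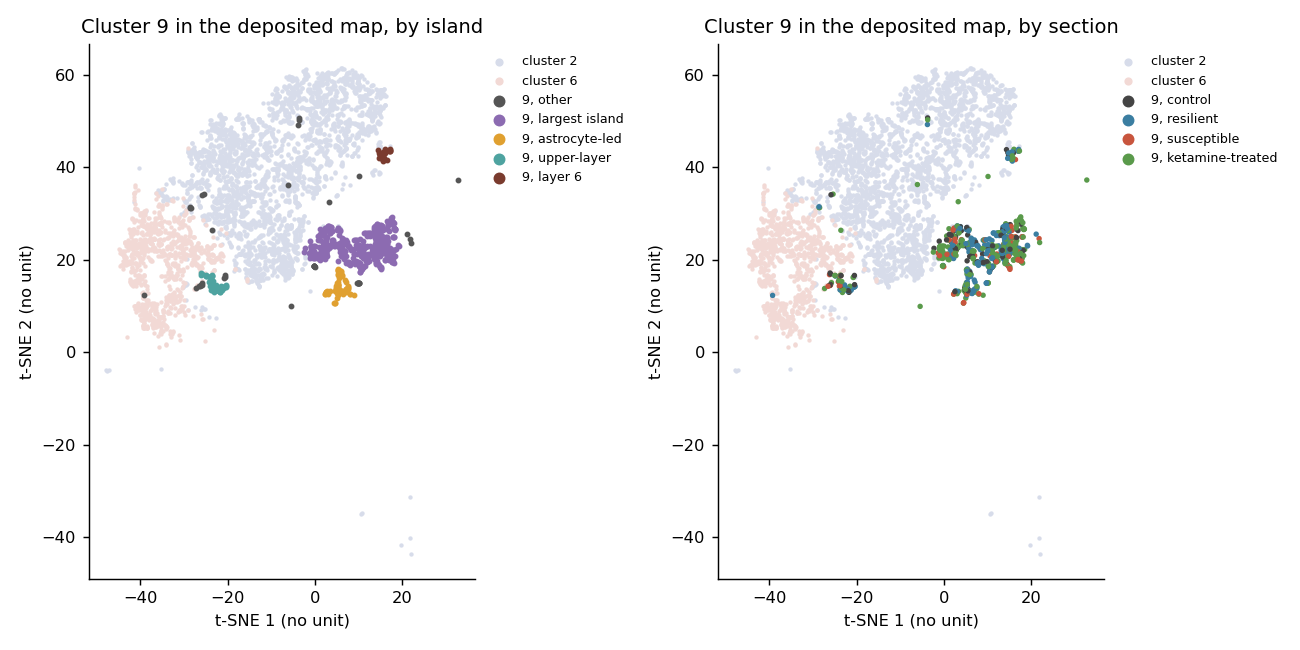
Positions of cluster 9 spots in the deposited t-SNE map (both axes without a unit), coloured by island on the left and by section on the right, over the spots of clusters 2 and 6 in pale colours. The largest island of 446 spots lies beside cluster 2, and the islands of 51 and 26 spots lie apart from it; spots of all sections are found in each.

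The largest island took up a like proportion of cluster 9 in every section, while the smaller islands varied more and rested on few spots. The largest held 68.9% (59.1% to 77.7%) of control, 65.0% (58.0% to 71.6%) of resilient, 71.2% (59.4% to 81.2%) of susceptible and 71.7% (66.0% to 77.0%) of ketamine-treated cluster 9 spots. The astrocyte-led island held 9.71%, 15.5%, 12.3% and 11.52%, and the upper-layer island held 10.7%, 9.50%, 9.59% and 5.20%. The layer 6 island held 5, 11, 1 and 9 spots, which is 4.85%, 5.5%, 1.37% and 3.35%. The intervals of the sections overlapped for each of these islands. For the smaller islands the intervals are wide, so their overlap does not show that the proportions were alike. Within the largest island, the upper-layer share was 18.9%, 17.1%, 16.9% and 25.3%, and the layer 6 share was 14.2%, 14.1%, 12.8% and 7.10%, in the order control, resilient, susceptible and ketamine-treated. The higher upper-layer and lower layer 6 share of the ketamine-treated section was thus also found in that island alone. Its upper-layer share was also the highest in cluster 2 (15.6%, others 4.46% to 12.9%), cluster 6 (57.9%, others 42.3% to 57.0%) and the whole section (19.5%, others 10.1% to 17.5%). Its layer 6 share was the lowest in cluster 6 (0.26%). It was not the lowest in cluster 2 (24.7%, others 20.7% to 26.3%) or over the whole section (6.08%, others 5.49% to 6.42%).

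The vascular share was lower without the astrocyte-led island. With its 81 spots left out, a choice made after seeing the data, the vascular share of cluster 9 was 2.35% for the control, 1.63% for the resilient, 2.41% for the susceptible and 2.08% for the ketamine-treated section. These values were above cluster 2, which had 0.54%, 0.48%, 0.47% and 1.03%, in 4 of 4 sections. Against cluster 6, with 1.66%, 2.13%, 0.63% and 0.80%, they were higher in 3 sections and lower in the resilient section. Endo alone was 1.64%, 1.33%, 2.05% and 1.03% without the island. Its means were 0.28%, 0.16%, 0.12% and 0.56% in cluster 2 and 0.83%, 0.70%, 0.13% and 0.25% in cluster 6. The astrocyte share without the island was 10.99%, 7.20%, 12.0% and 9.86%, still above the 8.59%, 3.61%, 8.68% and 8.003% of cluster 2.

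**Figure D5:**
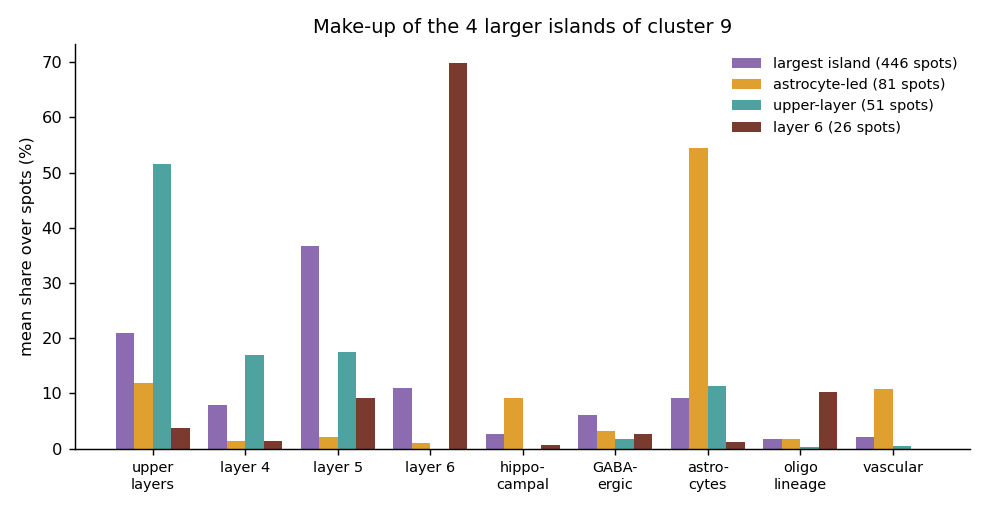
Mean share over spots (vertical axis, percent, from 0) of groups of cell types in the 4 larger islands of cluster 9, all sections pooled. Layer 6 types make up 69.8% of the layer 6 island and astrocytes 54.4% of the astrocyte-led island, while the largest island is mixed.

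Sections were then compared within cluster 9, over types with a mean share of at least 1% in either section, counting those that differed at least 1.5-fold. Over the 6 pairs of sections, 58 of 116 comparisons passed the fold, against 43 of 133 (32.3%) over the whole sections, 37 of 87 (42.5%) in cluster 2 and 28 of 62 (45.2%) in cluster 6. In 4 of the 58 the intervals of the shares of spots that kept the type lay apart. All 4 were in the pair of ketamine-treated and resilient sections, the pair with the most spots. With the mean share itself taken as a share of as many spots, the intervals overlapped in all 58. That interval treats each spot as wholly of the type or without it, which is wider than the spread of the shares over spots. Its overlap thus does not show that the mean shares were alike.

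Between the susceptible and the control section, which asks about the stress response, 8 of 17 types passed (47.1%), against 33.3% over the whole sections. The counts were 6 of 14 in cluster 2 and 4 of 11 in cluster 6. Higher in the susceptible section were Pvalb (5.72% against 1.56%), Meis2 (2 spots against 0), Micro (2 spots against 1) and NP_SUB (1.85% against 1.08%). Lower were L6b_CTX (0.66% against 2.45%), L6_IT_CTX (1.13% against 3.25%), L5_IT_CTX (8.61% against 14.6%) and L2_IT_RSPv (1.37% against 2.23%). Over the whole sections, Pvalb went the other way, at 0.76 times the control, while the ratio was 1.88 in cluster 2 and 0.75 in cluster 6. The intervals of the shares of spots overlapped for all 8. In the largest island alone, Micro turned (0 against 0.24%) and NP_SUB lost its difference (1.58% against 1.57%), while the other 6 stayed past the fold in the same direction.

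Between the resilient and the control section, 8 of 20 types passed (40%), against 39.1% over the whole sections. Cluster 2 had 8 of 15 past the fold and cluster 6 had 7 of 11. Micro, SUB, L3_RSP_ACA, Pvalb, L5_IT_TPE_ENT and CA1 were higher in the resilient section, and the means were 1.26% against 0.17% for Micro, 2.44% against 1.56% for Pvalb and 3.35% against 2.21% for L5_IT_TPE_ENT. L2_IT_RSP_ACA (7.87% against 13.4%) and L6_IT_CTX (0.81% against 3.25%) were lower. In the largest island alone, SUB (1.14% against 1.15%), L5_IT_TPE_ENT (3.39% against 3.20%) and CA1 (0 in both) no longer passed, and the other 5 did. For L2_IT_RSP_ACA the ratio was 0.59 here, 0.36 in cluster 2, 0.64 in cluster 6 and 0.48 over the whole sections. The lower share of this type in the resilient section was thus found in each of these. Between the susceptible and the resilient section, 9 of 21 types passed (42.9%), against 43.5% over the whole sections. Cluster 2 had 10 of 15 and cluster 6 had 5 of 11. Meis2, Pvalb and NP_SUB were higher and L6b_CTX, L2_IT_RSPv, CA1, SUB, L3_RSP_ACA and L2_3_IT_TPE were lower in the susceptible section, the last 4 being kept in 0 of its 73 spots. CA1 was at 0 in both sections in the largest island, where the other 8 stayed past the fold.

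Between the ketamine-treated and the susceptible section, which asks about ketamine, 10 of 19 types passed (52.6%), against 14.3% over the whole sections. The counts were 3 of 14 (21.4%) in cluster 2 and 1 of 8 in cluster 6. Higher in the ketamine-treated section were L2_IT_RSP_ACA (16.4% against 9.21%), L2_IT_ENTl, L6b_CTX, L2_IT_RSPv and L3_RSP_ACA. Lower were L5_IT_TPE_ENT (0.89% against 2.95%), L2_3_IT_CTX (2.59% against 4.60%), L4_5_IT_TPE_ENT (5.22% against 8.57%), L6_CT_CTX (4.74% against 7.34%) and Meis2 (1 spot against 2). None of the 10 had intervals that lay apart, and the susceptible section had the fewest spots. In the largest island alone, L6b_CTX fell short of the fold (1.00% against 0.92%) and the other 9 passed. The larger share of types past the fold stands beside 73 and 269 spots here, 761 and 663 in cluster 2, and 213 and 209 in cluster 6. The part of spot number in it was not tested. Astro (14.5% against 17.6%), L5_PT_RSP_ACA (16.4% against 15.3%), Oligo (1.96% against 1.85%) and Endo (1.72% against 2.10%) did not pass the fold.

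Between the ketamine-treated and the control section, 11 of 18 types passed (61.1%), against 27.3% over the whole sections. The counts were 3 of 14 in cluster 2 and 5 of 10 in cluster 6. L5_PT_RSP_ACA (16.4% against 10.8%), Pvalb (4.36% against 1.56%), NP_SUB, L3_RSP_ACA, Micro and L2_IT_ENTl were higher in the ketamine-treated section. L6_CT_CTX (4.74% against 8.79%), L6_IT_CTX, L6b_CTX, L5_IT_TPE_ENT and L2_3_IT_CTX were lower. None of the 11 had intervals that lay apart. In the largest island alone, L5_PT_RSP_ACA fell short of the fold (21.8% against 14.7%) and the other 10 passed. Between the ketamine-treated and the resilient section, 12 of 21 types passed (57.1%), against 34.8% over the whole sections. Cluster 2 had 7 of 15 and cluster 6 had 6 of 11. The 12 types of cluster 9 included the 4 with intervals that lay apart. L2_IT_RSP_ACA was 2.08 times higher in the ketamine-treated section, beside a ratio of 2.76 over the whole sections. L4_5_IT_TPE_ENT was at 0.53 times the resilient value, beside 0.68 over the whole sections. L5_IT_TPE_ENT was kept in 8 of 269 spots against 20 of 200, and L2_3_IT_TPE in 0 of 269 against 7 of 200. All 4 went the same way over the whole sections as in cluster 9, but the ratio was 1.28 for L4_5_IT_TPE_ENT in cluster 6 and 1.08 for L2_3_IT_TPE in cluster 2. CA1, among the other 8 types, was at 0 in both sections in the largest island.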

How the data were processed

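Members and lists were chosen with earlier results of these data known. The 4 deposited tables give, per spot, a cluster number and the fraction assigned to each of 67 types by the authors; fractions were multiplied by 100. A further deposited table gives t-SNE coordinates, which are scores with no unit, for all spots, and was joined to the sections by barcode. The genome build named in the submitters' processing notes is mm10. How reads were counted, spots clustered and cell types assigned is not given in the sources used here. Cluster numbers were taken as shared by all sections. Types were named if they were a marker of the cluster, Oligo or OPC, or had a mean of at least 1% in at least 1 section, and in a comparison if they differed at least 1.5-fold. Counts of spots carry exact Clopper-Pearson 95% intervals, and a count of 0 a limit of 3 spots. No p-value was computed, since each group is 1 section. Islands came from density clustering (scikit-learn 1.9.0) of t-SNE coordinates; other steps used Python 3.11.15, pandas 2.3.3 and scipy 1.17.1. The scripts' counts and means were tested on simulated data. Depth is unknown, so precision rests on the numbers of spots.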

Additional observations from a re-analysis of the deposited data

Results flagged for a closer look

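Within cluster 9, 58 of 116 comparisons of a type between 2 sections passed 1.5-fold. In 7 of these the type changed in the other direction in cluster 2 or 6, also by at least 1.5-fold. In both clusters the type then had a mean share of at least 1% in either section. The difference between the clusters was not tested, and each value rests on at most 8 spots of either section in cluster 9. L6_IT_CTX in the susceptible section was at 0.35 times the control in cluster 9 (2 spots against 6) and at 1.82 times in cluster 2. Micro in the susceptible section was at 6.25 times the control in cluster 9 (2 spots against 1) and at 0.60 times in cluster 6, and in the ketamine-treated section at 6.24 times the control (5 spots against 1) and at 0.53 times in cluster 6. L3_RSP_ACA in the resilient section was at 1.59 times the control in cluster 9 (6 spots against 2) and at 0.22 times in cluster 2. In the susceptible section L3_RSP_ACA was kept in 0 of 73 cluster 9 spots, a ratio of 0 to the 6 resilient spots, and was at 3.19 times the resilient value in cluster 2. L2_IT_RSPv in the susceptible section was at 0.55 times the resilient value in cluster 9 (1 spot against 6) and at 1.78 times in cluster 2. L5_IT_TPE_ENT in the ketamine-treated section was at 0.40 times the control in cluster 9 (8 spots against 5) and at 1.97 times in cluster 2. The remaining cluster did not always side against cluster 9. In cluster 2, Micro was at 3.37 (susceptible) and 4.37 (ketamine-treated) times the control, as in cluster 9. In cluster 6, L2_IT_RSPv also went as in cluster 9, at a ratio of 0. There L6_IT_CTX (1.81), L3_RSP_ACA in resilient over control (0) and L5_IT_TPE_ENT (1.22) went against cluster 9.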

How the results depend on the processing

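No paired analysis was possible because each group is 1 section. Sizes and mean shares moved by less than their intervals when unknown spots were left out. So they did when each kept type of a spot had equal weight, and when shares under 15% were set to 0. That floor could change little by its design, since the smallest kept share in cluster 9 was 14.2%. Counts past the fold stayed within 1.5 times when made on spots keeping or led by a type. With a minimum mean of 0.5%, the number of types past 1.5-fold was 19 of 30 (susceptible over control; 36.7% over the whole sections), 15 of 29 (resilient over control; 39.3%), 15 of 31 (susceptible over resilient; 41.4%), 18 of 28 (ketamine-treated over susceptible; 19.4%) and 20 of 27 (ketamine-treated over control; 28.6%). At 2-fold it was 5 of 17 (14.3% over the whole sections), 3 of 20 (26.1%), 4 of 19 (0%) and 6 of 18 (13.6%), in the same order without susceptible over resilient. The share of spots with both upper-layer and deep-layer types was 24.0% in the resilient section with layer 4 counted as deep, and 25.9% (susceptible) and 37.4% (ketamine-treated) among spots with 3 types. With 30 neighbours, 91.2% of those of ketamine-treated spots were in cluster 9. Leaving out each section in turn turned the sign of small differences: cluster 9 minus cluster 2 in GABAergic types ran from -1.21 to 0.22 points, and cluster 9 minus cluster 6 in other glutamatergic types from -0.15 to 0.20, with -0.059 when spots were pooled. The causes were not tested. Alternatives added after seeing the data gave 7 to 13 types past the fold in the largest island alone, and 4 islands (largest 425 spots) at a link distance of 1 against 3 islands (largest 533 spots) at 2.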
